A study of Rattus norvegicus with 6 samples.

Results

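The miR-10/99/100 family and the miR-125 family are conserved microRNAs (miRNAs) whose genes sit in Hox clusters or in shared clusters with let-7. Their 7 guide-strand members, miR-10a-5p, miR-10b-5p, miR-99a-5p, miR-99b-5p, miR-100-5p, miR-125a-5p and miR-125b-5p, were chosen by name, and all 7 were present among the 420 mature miRNAs of the deposited table and among the 410 that were tested. The study asked how melatonin given to rats changed the miRNA content of their plasma exosomes, which are small vesicles that cells release into blood. Adult male Sprague Dawley rats received the solvent (PBS with 5% DMSO) or melatonin, the hormone of the pineal gland, at 10 mg/kg in the same solvent by intraperitoneal injection on 7 days, and plasma was taken on day 8. The solvent group is EXO1 (n = 3 libraries) and the melatonin group is EXO2 (n = 3 libraries), so both groups carried DMSO and no untreated group was compared. The methods of the study name saline where the labels name PBS, and an isolation kit where the labels name centrifugation. Since nothing in the labels ties a library to its own rat, the p-values speak only of how far these libraries spread, and that spread could be technical.

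A miRNA is cut from a hairpin precursor, and one arm, the guide strand, is loaded into an Argonaute protein, where bases 2 to 8 (the seed) pair with target messenger RNAs and lower their output. Members of the miR-10 family lie between Hox genes, which pattern the body axis, and are known from mesodermal and endothelial cells. miR-99 and miR-100 are known in mammals for repression of the growth kinase mTOR. miR-125, the vertebrate relative of lin-4 of Caenorhabditis elegans, is known for roles in developmental timing, in blood stem cells and in inflammation. In the ancestral clusters a miR-99/100 gene, a let-7 gene and a miR-125 gene lie side by side, and such clusters are expressed in many mesenchymal and vascular cells.

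The sequences show which of the members printed here share a seed and at which bases they differ. RefSeq mature sequences of assembly GRCr8 were found for 6 of the 7 members, all but miR-99a-5p, and are printed 5′ to 3′ with the seed (bases 2 to 8) in capitals. The first pair belongs to the miR-10 branch. miR-10a-5p lies at chr10:81779730-81779752 on the plus strand, between Hoxb5 and Hoxb4, and miR-10b-5p at chr3:80035886-80035907 on the plus strand, within the annotated span of Hoxd4.
rno-miR-10a-5p: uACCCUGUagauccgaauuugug
rno-miR-10b-5p: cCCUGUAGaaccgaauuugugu
Both sequences printed for the miR-99/100 branch have another seed in common. miR-99b-5p lies at chr1:67350070-67350091 on the plus strand, inside Spaca6, and miR-100-5p at chr8:50798307-50798328 on the plus strand, inside the host transcript Lnc215.
rno-miR-99b-5p: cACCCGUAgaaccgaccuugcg
rno-miR-100-5p: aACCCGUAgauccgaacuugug
The miR-125 pair has a seed in common that none of the 4 sequences above carries. miR-125a-5p lies at chr1:67350689-67350712 on the plus strand, in the same Spaca6 cluster as miR-99b-5p, and miR-125b-5p is listed at chr11:29732588-29732609 on the plus strand (Mir125b2), with a further precursor, Mir125b1, in the cluster of Mir100 on chromosome 8.
rno-miR-125a-5p: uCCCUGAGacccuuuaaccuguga
rno-miR-125b-5p: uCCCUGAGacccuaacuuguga

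The 6 sequences held 4 distinct seeds, 1 shared by miR-99b-5p and miR-100-5p, 1 shared by the miR-125 pair, and 1 for each miR-10 member as annotated. Positions are counted from 1 at the 5′ end of the miRNA named first. The pair of miR-10 sequences has different annotated seeds because the annotated miR-10b-5p starts 2 bases further into the shared sequence, and over their 21 aligned bases they differed only by U12A. In the Mir10b hairpin the 2 bases before the annotated start are UA, and the 8 bases from there, UACCCUGU, equal the first 8 of miR-10a-5p. The table of values does not say where reads start, so which seed the miR-10b-5p reads carried is not known. Aligned without gaps and with an offset of 1 base, miR-10a-5p differed from miR-100-5p by 3 of 22 bases (C3A, U6C and U18C). Of these, C3A and U6C fall in the seed of miR-10a-5p. Both sequences carry ACCC from base 2, so C3A and U6C depend on that offset and on allowing no gap. miR-99b-5p and miR-100-5p differed at 4 bases outside the seed (C1A, A11U, C16A and C21U). miR-125a-5p and miR-125b-5p shared their first 13 bases. How reads that match both of such a pair were divided is not given in the sources used here. Differences between miR-10a-5p and miR-10b-5p are therefore uncertain by the share of reads that could be assigned to either. Whether the same limit applies to miR-99a-5p and miR-100-5p could not be examined, because no sequence was found for miR-99a-5p.

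The deposited values are reads divided by a library factor and are called normalized CPM here, after the table's own header (CPM, reads scaled to the size of the library). Kept miRNAs held 2279500 to 5868405 reads in EXO1 and 3033119 to 4999379 reads in EXO2, and each member rested on 341 to 89232 reads in a library. The libraries differed in their leading miRNAs. miRNAs known from erythrocytes took 7.86%, 23.9% and 11.4% of the reads in EXO1 replicates 1, 2 and 3, against 57.6%, 64.3% and 67.7% in EXO2. Muscle miRNAs took 82.6%, 23.2% and 0.909% in EXO1, against 1.23%, 1.51% and 0.739% in EXO2. EXO1 replicate 1 had a composition factor of 0.264, against 0.941 to 1.86 in the others, and its normalized values stand above its plain shares of reads. In vesicle RNA, fewer vesicles from a source and less of a miRNA per vesicle cannot be told apart.

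All 7 members had lower mean levels in EXO2 than in EXO1, with a median log2 fold change of -1.09, although no member passed the adjusted test. The log2 fold change of miR-125b-5p turned positive (0.06) under 2 other scalings of the libraries. Without EXO1 replicate 3, only 5 of the 7 log2 fold changes were negative. The summed level of the 7 members was 26442, 14894 and 39164 normalized CPM in EXO1 replicates 1, 2 and 3, against 9597, 11375 and 8063 in EXO2, and the groups did not overlap in this sum as deposited. The EXO1 mean of the sum was 2.77 times the EXO2 mean. EXO2 was compared with EXO1 by limma on log2(normalized CPM + 1), a scale on which the change of low miRNAs is understated, with Benjamini-Hochberg adjustment over 410 miRNAs. None of the 410 miRNAs passed an adjusted p of 0.05 (0%), while 54 had an unadjusted p under 0.05, and limma without sharing variances between miRNAs called 1. By the thresholds of the study's methods (fold change over 1.5 and unadjusted p under 0.05), 2 of the 7 members were lower in EXO2, miR-100-5p and miR-99a-5p, beside a background of 7.32% (30 of 410). The count of members was 0 when libraries were scaled by their totals (background 5.37%), 3 by median-ratio size factors (10.2%) and 1 by reads outside the erythrocyte and muscle miRNAs (5.85%). Without EXO2 replicate 1 the count of members was 0, beside 26 lower of the 407 miRNAs tested there. These same thresholds called 24 miRNAs higher, and the split of lower to higher calls moved to 22 and 8 when libraries were scaled by their totals, to 42 and 18 by median-ratio size factors, and to 24 and 37 by reads outside the erythrocyte and muscle miRNAs. In 2 of the 7 members, miR-99b-5p and miR-125a-5p, every EXO2 library lay below every EXO1 library, beside a background of 9.51%. A negative fold change was common in the table, at 62.4% of all miRNAs, where the median log2 fold change was -0.56. Among the 139 miRNAs with a mean of 100 or more normalized CPM, a range that holds all 7 members, 45.3% were negative and the median was 0.12. The study picked miR-99a-5p and miR-100-5p as lower from these libraries, so their direction here is not independent evidence of it.

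**Figure D1:**
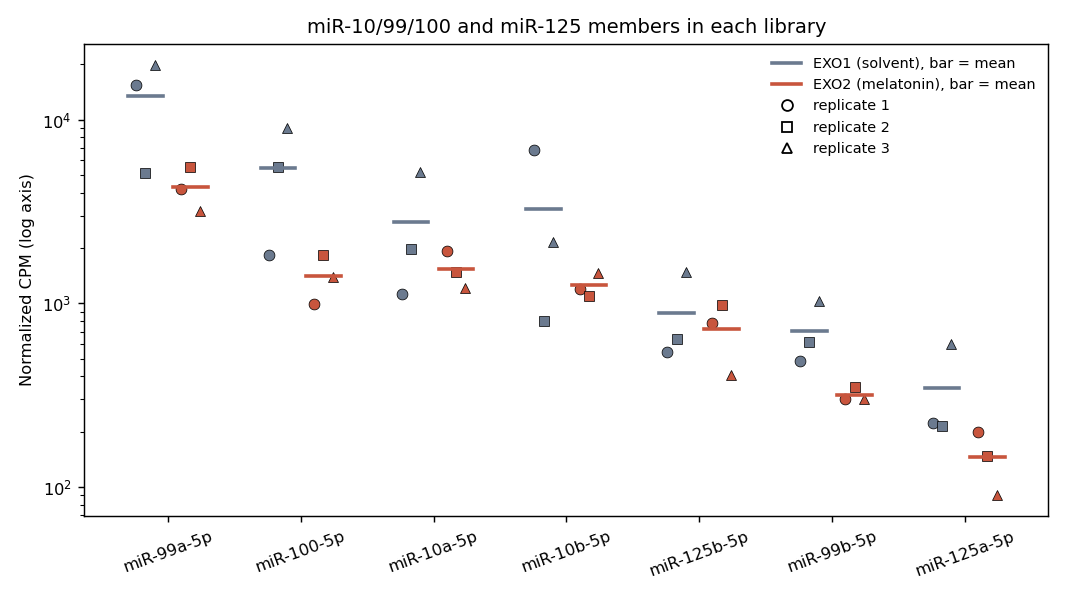
Level of each of the 7 members in normalized CPM (log axis) in every library, grey-blue for EXO1 (solvent) and red for EXO2 (melatonin), with the replicate shown by the symbol and the mean of 3 libraries by a bar. Every EXO1 mean lies above the EXO2 mean, but only miR-99b-5p and miR-125a-5p have EXO2 libraries all below EXO1, and miR-125b-5p turns to a positive fold change when libraries are scaled by their totals or by reads outside erythrocyte and muscle miRNAs.

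The miR-99/100 branch was the most abundant of the 3 groups (miR-10, miR-99/100 and miR-125) and had the largest ratio of EXO1 to EXO2 means. Its summed level was 17741, 11266 and 29733 normalized CPM in EXO1, compared to 5495, 7689 and 4885 after melatonin. As deposited, the lowest EXO1 library thus lay above the highest EXO2 library. By share of all miRNA reads the groups overlapped, since EXO1 replicate 1 (0.477%) was below every EXO2 library (0.492% to 0.857%). Of the reads outside erythrocyte and muscle miRNAs, the groups did not overlap (4.32% to 5.44% in EXO1, 1.56% to 2.51% in EXO2). The means were 19580 ± 9370 in EXO1 and 6023 ± 1475 in EXO2 (SD, n = 3 each), a ratio of 3.25.

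miR-99a-5p (rno-miR-99a-5p), which comes from the cluster of Mir99a, Mirlet7c1 and Mir125b2 on chromosome 11, stood at 15425, 5129 and 19711 normalized CPM in EXO1 replicates 1, 2 and 3 and at 4206, 5506 and 3189 in EXO2 replicates 1, 2 and 3, the order in which values of a group are given throughout. EXO1 replicates 1 and 3 were high, and the groups overlapped because EXO1 replicate 2 lay below EXO2 replicate 2. The means were 13422 ± 7494 and 4300 ± 1161 (SD, n = 3 each). By limma the log2 fold change was -1.47 ± 0.59 (SE), with an unadjusted p of 0.0261 that did not pass adjustment (adjusted p = 0.333). Its unadjusted p no longer passed when libraries were scaled by their totals or by reads outside the erythrocyte and muscle miRNAs. Nor did it pass without shared variances, with a replicate block, or when any single library other than EXO1 replicate 2 was left out.

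miR-100-5p (rno-miR-100-5p), from the cluster of Mir100, Mirlet7a-2 and Mir125b1 on chromosome 8, stood at 1834, 5521 and 8993 normalized CPM in EXO1, compared to 988, 1835 and 1396 in EXO2. The groups overlapped only between EXO1 replicate 1 and EXO2 replicate 2, which had nearly the same level. It had the largest difference of the 7 members, with a log2 fold change of -1.72 ± 0.60 (SE, n = 3 each, limma, adjusted p = 0.313, unadjusted p = 0.0116). Without EXO1 replicate 1 the value was -2.37, and limma gave an adjusted p of 0.0840, the lowest of any member under any alternative. Its unadjusted p no longer passed by library totals, without shared variances, without EXO1 replicate 2 (where the log2 fold change was -1.57) or without EXO2 replicate 1 (-1.49).

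miR-99b-5p (rno-miR-99b-5p), from the cluster of Mir99b, Mirlet7e and Mir125a on chromosome 1, stood at 0.0313 to 0.120 of miR-99a-5p across the libraries, with 482, 616 and 1029 normalized CPM in the solvent libraries, while EXO2 had 300.0, 348 and 299.9. Its groups did not overlap, and the EXO2 libraries lay close together (316 ± 27.9, SD, n = 3, against 709 ± 285 in EXO1). The log2 fold change was -1.09 ± 0.53 (SE, limma, adjusted p = 0.342), with an unadjusted limma p of 0.0583. That p passed 0.05 by median-ratio size factors (0.0282), with a pseudocount of 5 (0.0480), with the filter of 10 in at least 3 libraries (0.0440), without shared variances (0.0294) and without EXO1 replicate 1 (0.0223), and its adjusted value passed in none of them.

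In the miR-10 branch, single EXO1 libraries held most of the difference. The summed level of miR-10a-5p and miR-10b-5p was 7934, 2775 and 7347 normalized CPM in EXO1, compared to 3127, 2562 and 2681 in EXO2, and EXO1 replicate 2 lay among the EXO2 libraries. The means were 6019 ± 2824 and 2790 ± 298 (SD, n = 3 each).

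miR-10a-5p (rno-miR-10a-5p) measured 1127, 1973 and 5199 normalized CPM in EXO1, compared to 1935, 1471 and 1213 in EXO2. EXO1 replicate 3 alone was high, and EXO1 replicate 1 was the lowest of all 6 libraries. The log2 fold change was -0.58 ± 0.58 (SE, n = 3 each, limma, adjusted p = 0.562), and without EXO1 replicate 3 it was 0.02.

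miR-10b-5p (rno-miR-10b-5p) had another pattern, at 6807, 802 and 2148 normalized CPM in EXO1, while the EXO2 libraries had 1192, 1091 and 1468. EXO1 replicate 1 was the highest and EXO1 replicate 2 the lowest of the 6 libraries, so EXO1 enclosed EXO2 on both sides. The log2 fold change was -0.87 ± 0.66 (SE, n = 3 each, limma, adjusted p = 0.472), and it moved both ways with the libraries left out, to -0.08 without EXO1 replicate 1 and to -1.62 without EXO1 replicate 2 (limma, unadjusted p = 0.0206, adjusted p = 0.287). The ratio of miR-10a-5p to miR-10b-5p was 0.166 in EXO1 replicate 1, against 2.46 and 2.42 in EXO1 replicates 2 and 3 and 0.827 to 1.62 in EXO2.

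The miR-125 pair was the least abundant group and its members differed from each other. Their summed level was 768, 853 and 2085 normalized CPM in EXO1, compared to 976, 1123 and 497 in EXO2, so the groups overlapped, with means of 1235 ± 737 and 865 ± 327 (SD, n = 3 each).

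miR-125a-5p (rno-miR-125a-5p), the lowest of the 7 members, measured 224, 215 and 600 normalized CPM in EXO1, compared to 199, 148 and 90.7 in EXO2. The groups did not overlap, but EXO1 replicates 1 and 2 were only just above EXO2 replicate 1. The log2 fold change was -1.14 ± 0.66 (SE, n = 3 each, limma, adjusted p = 0.389).

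miR-125b-5p (rno-miR-125b-5p) had 544, 638 and 1485 normalized CPM in EXO1, compared to 777, 975 and 406 in EXO2. EXO1 replicate 3 was high, and the other EXO1 libraries lay within the range of EXO2. The log2 fold change was -0.25 ± 0.57 (SE, n = 3 each, limma, adjusted p = 0.815). It was 0.20 without EXO1 replicate 3, and 0.06 both when libraries were scaled by their totals and when scaled by reads outside the erythrocyte and muscle miRNAs. This miRNA has a pair of precursors and was listed in 2 rows of nearly the same reads (859 against 824 in EXO1 replicate 1, and 1527 against 1526 in EXO2 replicate 3), which is why the row with the higher sum was kept and the rows were not added. Which of its clusters the reads came from cannot be told from the mature sequence.

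The order of the members was stable across the libraries at its lower end. By mean log2 level it was miR-99a-5p, miR-100-5p, miR-10a-5p, miR-10b-5p, miR-125b-5p, miR-99b-5p and miR-125a-5p, with values of reads per mature miRNA that were not corrected for length. miR-10b-5p was above miR-125b-5p, miR-125b-5p above miR-99b-5p, and miR-99b-5p above miR-125a-5p in 6 of 6 libraries. Among the upper members the order was less sharp, since miR-99a-5p was above miR-100-5p and miR-100-5p above miR-10a-5p in 5 of 6 libraries, and miR-10a-5p above miR-10b-5p in 4 of 6. miR-99a-5p took 34.4% to 58.3% of the reads of the 7 members in each library, and ranked 10 to 30 among all kept miRNAs, whereas miR-125a-5p ranked 72 to 135.

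As a share of reads, the position of EXO1 replicate 1 changed with the denominator. The 7 members took 0.711% of all miRNA reads in EXO1 replicate 1 (95% Wilson interval 0.704% to 0.718%), 3.02% in replicate 2 (3.00% to 3.04%) and 6.29% in replicate 3 (6.26% to 6.32%). In EXO2 they took 1.43% (1.42% to 1.44%), 1.27% (1.26% to 1.28%) and 0.812% (0.803% to 0.821%). EXO1 replicate 1 was the lowest of all 6 libraries by this measure, and the groups overlapped (3.34% ± 2.80 against 1.17% ± 0.320, SD, n = 3 each). Of the reads outside erythrocyte and muscle miRNAs, the members took 7.43%, 5.71% and 7.17% in EXO1, compared to 3.47%, 3.71% and 2.58% in EXO2. By this denominator the groups did not overlap, with means of 6.77% ± 0.927 and 3.25% ± 0.599 (SD, n = 3 each), a difference of -3.52 percentage points. The reads carried no molecular identifiers, so the intervals cover counting error only.

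**Figure D2:**
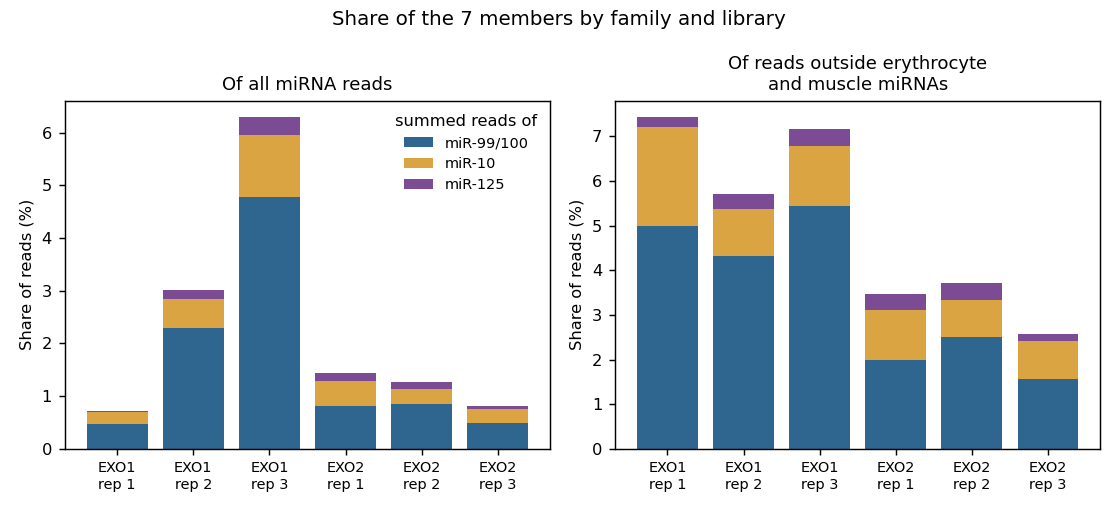
Stacked bars of the percentage of reads taken by the miR-99/100, miR-10 and miR-125 members in each library, on the left of all miRNA reads and on the right of reads outside the erythrocyte and muscle miRNAs. EXO1 replicate 1 is the lowest bar on the left (0.711%) and the highest on the right (7.43%), and on the right all EXO2 bars (2.58% to 3.71%) are below all EXO1 bars (5.71% to 7.43%).

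The other arms of the same precursors, which are usually degraded after the guide strand is chosen, were rare but measured. All 8 of those in the table had a negative log2 fold change, with a median of -2.03, and none passed adjustment. The background was 62.4% negative over all miRNAs tested. All 8 had means under 100 normalized CPM, and of miRNAs at 100 or more only 45.3% were negative. The background for such low miRNAs was therefore above 62.4%. By arithmetic mean miR-99b-3p was slightly higher in EXO2 (48.8 against 47.2), and its log2 fold change reversed in 3 of 16 alternatives. By the methods' thresholds 1 of 8 (miR-125a-3p) was lower, beside 7.32% of all miRNAs. miR-125a-3p had 12.0, 14.3 and 0.442 normalized CPM in EXO1 and was listed at 0 in the 3 EXO2 libraries, against 87 reads in EXO1. A count of 0 allows up to 3 reads in a library (0.538 to 0.798 normalized CPM in EXO2), so it was at least 13.4-fold lower in EXO2 by group mean (limma, unadjusted p = 0.0457, adjusted p = 0.342). EXO1 replicate 3 held only 2 reads, less than these floors allow in EXO2, so the groups were not shown to be apart at this depth, and the study picked this miRNA as lower from these libraries.

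Among the other arms the libraries varied more than the groups. miR-125b-1-3p had 40.5, 48.9 and 7.29 normalized CPM in EXO1, compared to 0, 0.718 and 10.6 in EXO2. miR-125b-2-3p had 26.6, 11.2 and 54.1, compared to 15.7, 0.897 and 1.60. Both were mostly higher in EXO1, with an overlap of 1 EXO2 library each. miR-99b-3p had 3.80, 72.3 and 65.6 in EXO1, compared to 117, 28.2 and 1.06 in EXO2, with no order between the groups. miR-10a-3p was above 100 normalized CPM only in EXO1 replicate 3 (131), the library in which miR-10a-5p was also highest, and miR-10b-3p ranged from 0 to 33.9. miR-99a-3p did not pass 10.6 in any library, and miR-100-3p had 11 reads in all, all in EXO1. The other measured rat miRNA with the miR-125 seed was miR-351-5p of the X chromosome. It measured 140, 9.74 and 1.77 normalized CPM in EXO1, compared to 0, 30.7 and 32.7 in EXO2 (log2 fold change -0.66, limma, adjusted p = 0.864), and its order of the libraries was unlike that of either miR-125 member.

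**Figure D3:**
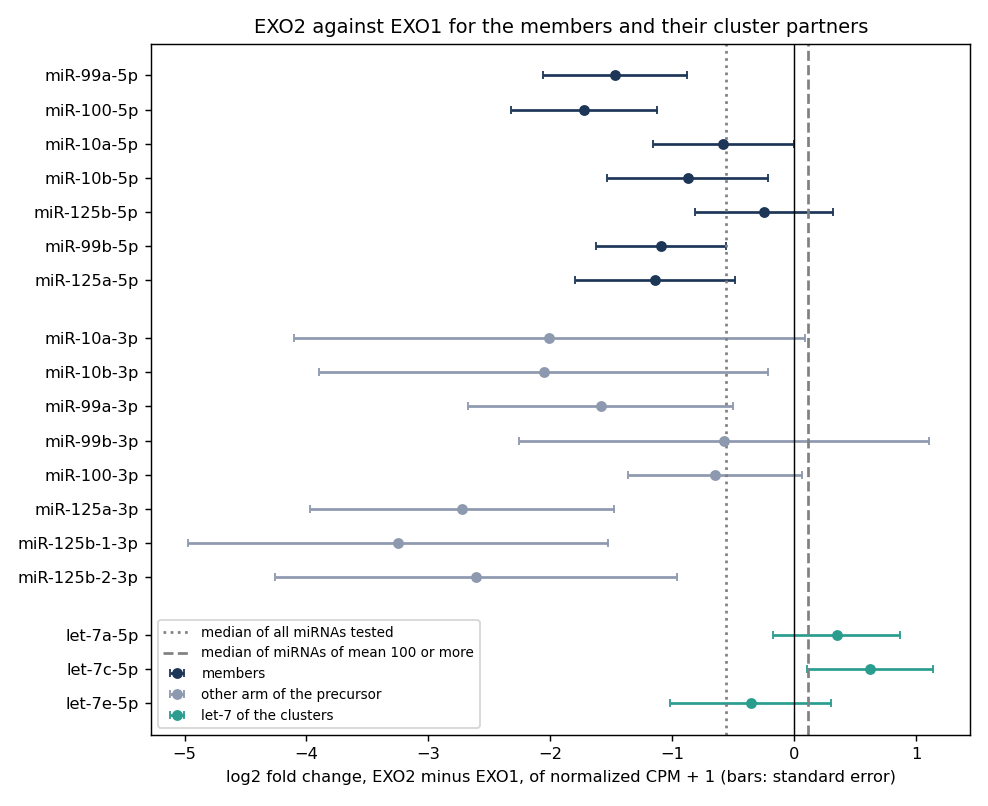
Log2 fold change of EXO2 against EXO1 on log2(normalized CPM + 1) with its standard error (bars) for the 7 members, the 8 other arms of their precursors and the 3 let-7 miRNAs of the same clusters, with the median of all 410 miRNAs (dotted, -0.56) and of the 139 miRNAs of mean 100 or more (dashed, 0.12). All members and other arms lie below 0 and let-7a-5p and let-7c-5p above it, and miR-125b-5p moves to 0.06 when libraries are scaled by their totals or by reads outside erythrocyte and muscle miRNAs.

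Of the let-7 miRNAs of the same clusters, which repress growth genes and mark differentiated cells, let-7c-5p and let-7a-5p had higher mean levels in EXO2, where their neighbours miR-99a-5p and miR-100-5p had lower ones, and neither let-7 difference passed the test. let-7c-5p measured 2899, 1188 and 1279 normalized CPM in EXO1, compared to 1956, 2607 and 3169 in EXO2 (log2 fold change 0.62, limma, adjusted p = 0.497). let-7a-5p measured 7596, 3617 and 4495 in EXO1, compared to 4664, 7349 and 7455 in EXO2 (log2 fold change 0.35, limma, adjusted p = 0.714). For both, EXO1 replicate 1 was high and the other EXO1 libraries were below all EXO2 libraries. let-7e-5p, of the cluster of miR-99b-5p and miR-125a-5p, measured 282, 174 and 199 in EXO1, compared to 205, 264 and 85.4 in EXO2 (log2 fold change -0.36, limma, adjusted p = 0.770). let-7a-5p and let-7c-5p each come from 2 loci of the RefSeq table, so their reads are not those of the cluster alone.

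Ratios between miRNAs within a library do not depend on how libraries were scaled, and 12 were compared by a 2-sided exact permutation test, all of them chosen with earlier results of these data known and 4 (those to let-7) added last. With 3 against 3 libraries the exact permutation test cannot go below p = 0.1, and no ratio passed adjustment over the 12 (lowest adjusted p = 0.4). In 3 of the 12 the groups did not overlap, an outcome that has an exact permutation p of 0.1 for each ratio. These 3 are not independent, since the ratio of miR-99a-5p to miR-125b-5p shares a member with each of the others. Of the 3, 1 was among the ratios to let-7 added last.

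miR-99a-5p was 28.3, 8.05 and 13.3 times miR-125b-5p in EXO1, and 5.41, 5.64 and 7.85 times in EXO2. These members share the chromosome 11 cluster through Mir125b2, and the difference in mean log2 ratio was -1.22 (exact permutation p = 0.1). The difference ranged from -1.64 to -0.73 when each library was left out in turn, and was nearest to 0 without EXO1 replicate 1.

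miR-125a-5p was 0.411, 0.338 and 0.404 of miR-125b-5p in EXO1, and 0.256, 0.152 and 0.223 of it in EXO2. The EXO1 libraries lay close together, and the difference in mean log2 ratio was -0.90 (exact permutation p = 0.1), with a range of -1.06 to -0.68 over the libraries left out.

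The log2 ratio of miR-99a-5p to let-7c-5p, neighbours on chromosome 11, was 2.41, 2.11 and 3.95 in EXO1, compared to 1.10, 1.08 and 0.0092 in EXO2, a difference of -2.09 (exact permutation p = 0.1). miR-100-5p and let-7a-5p of chromosome 8 differed by nearly as much, -2.07, but their groups overlapped, since EXO1 replicate 1 (-2.05) lay among the EXO2 libraries (-2.42 to -2.00, exact permutation p = 0.2). In the chromosome 1 cluster, the log2 ratios of miR-99b-5p to miR-125a-5p overlapped, with values of 1.11, 1.52 and 0.78 in EXO1, compared to 0.59, 1.24 and 1.72 in EXO2, a difference of 0.05 (exact permutation p = 0.9) that ranged from -0.22 to 0.35 when each library was left out. The ratios of this pair to let-7e-5p were lower in EXO2 by 0.74 and 0.79 on the log2 scale, with groups that overlapped. The remaining ratios, miR-10a-5p to miR-10b-5p, miR-99a-5p to miR-100-5p, miR-99b-5p to miR-99a-5p, miR-100-5p to miR-125b-5p and miR-10b-5p to miR-100-5p, also overlapped between the groups, with exact permutation p of 0.2 to 1.

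**Figure D4:**
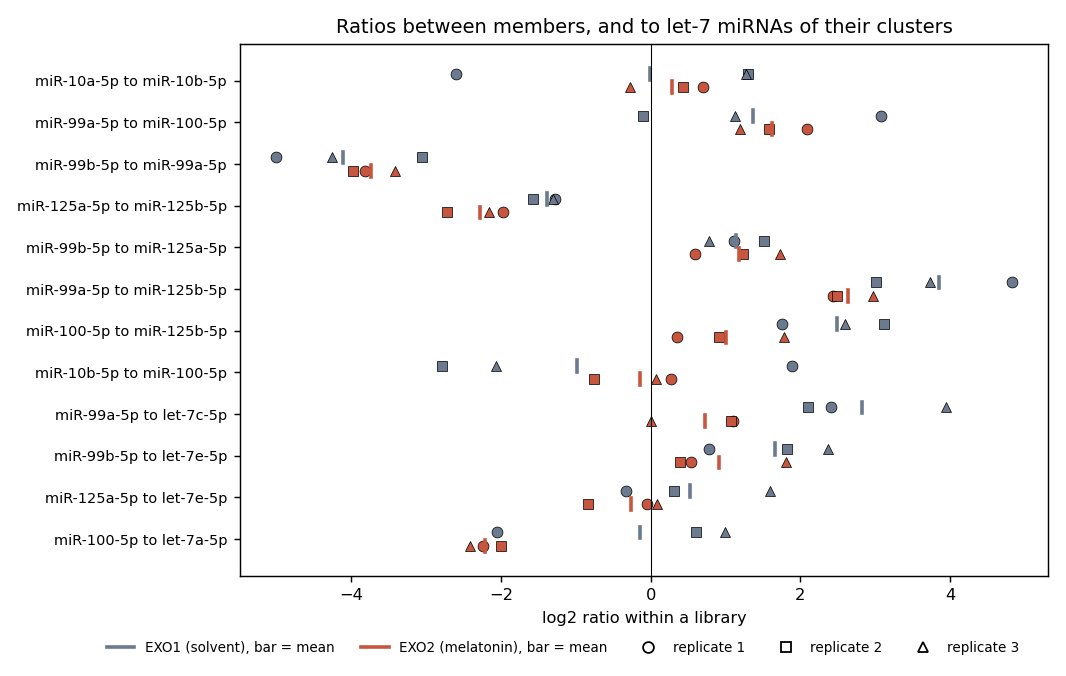
Log2 ratio within each library for 12 pairs of miRNAs, with EXO1 and EXO2 in separate rows, the replicate shown by the symbol and the mean of 3 libraries by a bar. The groups are apart in the ratios of miR-125a-5p to miR-125b-5p, miR-99a-5p to miR-125b-5p and miR-99a-5p to let-7c-5p, and the ratio of miR-10a-5p to miR-10b-5p is far lower in EXO1 replicate 1 (-2.59) than in the other libraries.

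Across the 6 libraries, the members were compared by the root mean square difference of their centred log2 levels, where 0 is the same pattern. The closest of all pairs was miR-99b-5p with miR-125a-5p of the chromosome 1 cluster (0.389), followed by miR-10a-5p with miR-125b-5p (0.408), which lie on different chromosomes. The farthest were miR-10b-5p with miR-100-5p (1.55) and miR-10a-5p with miR-10b-5p (1.33). Among 132 miRNAs outside the families with a mean of 100 or more, the summed miR-10 level was most like miR-26a-5p (0.205), miR-146a-5p (0.255) and miR-26b-5p (0.264), against a median of 1.07 over the 132. The summed miR-99/100 level was most like miR-26a-5p (0.384), miR-148b-3p (0.548) and miR-146a-5p (0.569), with a median of 1.29. The summed miR-125 level was most like miR-27a-3p (0.328), miR-126a-5p (0.368) and miR-150-5p (0.370), with a median of 1.06. miR-26a-5p, the nearest to the miR-10 and the miR-99/100 sums, measured 27419, 9783 and 36343 normalized CPM in EXO1, compared to 10385, 10512 and 9047 in EXO2, so it too was high in EXO1 replicates 1 and 3. These likenesses rest on 6 libraries that share their scaling and are descriptions only.

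The separation of the groups depended on the scaling of the libraries. Every EXO2 library was below every EXO1 library in 2 members as deposited (miR-99b-5p and miR-125a-5p, beside 9.51% of all miRNAs) and in 0 when scaled by library totals (beside 7.32%). By median-ratio size factors it was 4 members (these and miR-99a-5p and miR-100-5p, beside 11.7%), and by reads outside the erythrocyte and muscle miRNAs 2 members (miR-99a-5p and miR-99b-5p, beside 8.29%). The median of the 139 miRNAs of mean 100 or more moved from -0.09 to 0.42 over the scalings, and each of the 7 members moved nearly as much. Low miRNAs need not follow, since miR-10a-3p was -2.01 as deposited and -2.51 by library totals. As deposited, the members' log2 fold changes relative to that median ran from -1.84 (miR-100-5p) to -0.36 (miR-125b-5p), and without EXO2 replicate 3 that of miR-125b-5p was 0.02.

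Some lists of marker miRNAs of other cells were lower in EXO2, as the members were, and others were higher. All 7 smooth muscle and fibroblast miRNAs that were measured had a negative log2 fold change (median -1.62), and their summed share of the reads outside erythrocyte and muscle miRNAs was 2.91%, 5.63% and 19.9% in EXO1, compared to a range of 2.40% to 3.25% in EXO2. The 4 liver miRNAs were also all negative (median -1.55), with shares of 7.06%, 1.89% and 11.6% in EXO1, compared to 1.55% to 2.62% in EXO2. The 4 endothelial miRNAs had a median of -0.08 and shares of 2.46% to 4.02% in EXO1 and 4.15% to 4.80% in EXO2, and the 6 leukocyte and platelet miRNAs had a median of 0.49 and shares of 0.671% to 1.08% and 1.29% to 1.42%. The 9 erythrocyte miRNAs tested had a median of 1.53, with none negative, and the 9 muscle miRNAs a median of -0.61. The 6 neuron miRNAs listed had a median of 1.64, with none negative. By limma 4 of them had an unadjusted p under 0.05, beside 54 of all 410 miRNAs tested. Arms of these families that were not listed went both ways. They were miR-132-5p at -1.86, miR-128-1-5p at -1.13, miR-212-3p at -0.36 and miR-9a-3p at 0.88. The study picked miR-9a-5p, miR-138-5p and miR-212-5p as higher from these same libraries. Shares of the listed neuron miRNAs in the reads outside erythrocyte and muscle miRNAs were 0.732%, 0.436% and 0.145% in EXO1. In EXO2 these shares were 2.59%, 1.11% and 0.897%, which do not overlap those of EXO1. EXO1 replicate 3 had the highest smooth muscle and fibroblast share and the highest level of 6 of the 7 members, all but miR-10b-5p, whereas EXO1 replicate 1 had a low share of these markers (2.91%, within the EXO2 range) and still held 7.43% of members. The part of any of these cell sources in the members' levels was not tested.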

How the data were processed

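Small RNA of plasma exosomes was sequenced in 6 libraries, 3 per group. Reads were trimmed by the authors, discarded under 15 nucleotides and assigned to mature miRNAs by miRDeep2. Tools named in the submitters' processing notes were cutadapt 1.14, edgeR 3.18.1 and Bowtie. Not given in the sources used here are their genome build, miRNA release and treatment of reads that match several miRNAs. The authors deposited a signal per library and mature miRNA, headed CPM, in which reads were divided by a library factor. The log2 group means that the authors deposited were not used.

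In each library 100% of values were whole multiples of a common step (relative tolerance 1e-06), from which reads, shares and floors (3 reads) were computed. Too few low values were present in 5 of the 6 libraries for a count test under the rule followed. Of 468 rows, 420 miRNAs were kept, taking the row of the highest sum for 43 listed repeatedly. The 410 with a value above 0 in 2 or more libraries entered limma 3.58.1 (R 4.3.3, trended variance) on log2(value + 1), with no covariate and Benjamini-Hochberg adjustment. The fit was tested on simulated data. Ratios were compared by exact permutation tests in scipy 1.17.1. Shares carry Wilson intervals of 95%.

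The members, marker lists and ratios were chosen with earlier results of these data known. Named miRNAs were the members, the other arms of their precursors, the let-7 miRNAs of their clusters, other miRNAs of the same seed, and the 3 miRNAs most like each of the miR-10, miR-99/100 and miR-125 groups. Alternatives were 3 other scalings, pseudocounts of 0.5 and 5, no filter or a filter of 10 in at least 3 libraries, every row kept, variances not shared, a replicate block and leaving out each library. Sequences and positions are from RefSeq (GRCr8).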

Additional observations from a re-analysis of the deposited data

How the results depend on the processing

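Of the 7 members, miR-10b-5p, miR-99a-5p, miR-99b-5p, miR-100-5p and miR-125a-5p kept a negative log2 fold change under all 16 alternatives, and no member passed an adjusted p of 0.05 under any. miR-125b-5p reversed to 0.06 (0.062 by library totals and 0.065 by reads outside erythrocyte and muscle miRNAs). With each library left out in turn, log2 fold changes ranged from -1.08 to 0.02 (0.019) for miR-10a-5p, -1.62 to -0.08 for miR-10b-5p, -0.53 to 0.20 for miR-125b-5p, -1.88 to 1.04 for miR-99b-3p, -1.93 to 1.02 for miR-351-5p and -0.69 to 0.12 for let-7e-5p. Under the same settings differences of log2 ratios ranged from -1.002 to 0.94 for miR-10a-5p to miR-10b-5p, -0.48 to 1.11 for miR-99a-5p to miR-100-5p, -0.076 to 0.90 for miR-99b-5p to miR-99a-5p, -0.22 to 0.35 for miR-99b-5p to miR-125a-5p and -0.049 to 2.29 for miR-10b-5p to miR-100-5p. Leaving out each library gave 0 to 2 miRNAs past an adjusted p of 0.05 (2 without EXO1 replicate 1, miR-184 and miR-363-3p), 20 to 72 lower and 13 to 31 higher by the methods' thresholds. Higher calls numbered 8 by library totals and 37 by reads outside erythrocyte and muscle miRNAs, and lower calls 17 with the filter of 10 in at least 3 libraries, where 256 miRNAs were tested. Without shared variances 1 miRNA passed adjustment (miR-130b-5p). The cause of these moves was not tested. Same-numbered libraries of the groups did not deviate together (correlations -0.04, 0.06 and -0.12). With 3 libraries per group these correlations cannot settle whether the numbers pair samples, and the labels do not say. With a replicate block 2 miRNAs passed adjustment (miR-1b and miR-206-3p), neither of them a member, and of the members past the methods' thresholds miR-100-5p stayed past them and miR-99a-5p did not (limma, unadjusted p = 0.0512). Depth limits the other arms most, since they rest on 0 to 591 reads in a library, against 341 to 89232 for members.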
